A study of Caenorhabditis elegans with 2 samples.

Results

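The genes described here are 10 bZIP transcription factor genes of Caenorhabditis elegans: zip-1, zip-3, zip-4, zip-5, zip-8, zip-10, zip-11, ces-2, atf-2 and crh-1. They are 10 of 19973 protein-coding genes on the nuclear chromosomes, and they were named as a list, without a threshold on any measured value. The list was drawn up with earlier results of these data known. For each gene, all peaks were taken whose summit, the position of highest signal in a peak, lay between 2 kb upstream of any annotated 5′ end and the end of the gene. The measurement was chromatin immunoprecipitation followed by sequencing (ChIP-seq) of CEBP-1, itself a bZIP protein of the C/EBP family. The animals were of strain RW12290, which carries st12290[cebp-1::TY1::EGFP::3xFLAG] X, a tag placed by CRISPR at the endogenous cebp-1 gene. Whole young adults of 62 hours were used, synchronised by starving L1 larvae after bleaching. Chromatin was sonicated to between 200 and 800 bp and precipitated with anti-GFP per the description, while cebp-1 is what the antibody field gives. There was 1 group of 2 biological replicates, all with the tagged allele, and no untagged, input or treated sample was used here. The chromatin came from whole animals, so CEBP-1 in fewer cells and weaker binding in each cell cannot be told apart.

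A bZIP protein holds DNA with a basic region and pairs with another bZIP protein through its leucine zipper, as a homodimer or a heterodimer. Different families prefer different short palindromes: C/EBP proteins bind TTGCGCAA and related words, PAR-type proteins bind TTACGTAA, and proteins of the CREB and ATF type bind the cyclic AMP response element (CRE) TGACGTCA. Because bZIP proteins pair with one another and act in stress, immune and developmental programmes, whether one bZIP factor binds at the genes of others is a question about the wiring of the family. Among the 10 genes, crh-1 encodes the worm CREB protein, known for roles in memory and lifespan, and ces-2 encodes a PAR-type factor that controls the programmed death of the sister cells of the NSM neurons. ZIP-1 acts in the response to intracellular pathogens, ZIP-3 holds back the mitochondrial unfolded protein response driven by ATFS-1, and ZIP-10 promotes death after cold exposure. The other 5 are named as bZIP genes only.

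CEBP-1 peaks passed the authors' threshold at 3 of the 10 genes, zip-3, zip-4 and zip-5, and at none of the other 7. The threshold rests on the irreproducible discovery rate (IDR), the expected share of peaks at least as well ranked that do not repeat between a pair of lists. The stricter series list (conservative) held 1546 peaks and the wider one (optimal) 1969, and no peak in either had a global IDR above 0.01. In the conservative list 4 summits fell in the windows of these 3 genes, and 7.62% of all protein-coding genes were called by the same window (95% Wilson interval 7.26% to 7.996%, counting error only). The optimal list called the same 3 genes, with 6 summits, and 9.49% of all genes. The list of replicate 1 alone (1488 peaks) also called these 3, with 5 summits, and 8.02% of all genes. The list of replicate 2 alone (797 peaks) called 0 of the 10 genes, beside 4.48% of all genes. Within 1000 bp upstream to 200 bp downstream of an annotated 5′ end, conservative summits were again found at these 3 genes, against 5.06% of all genes. With 10 genes and no test, 3 of 10 is a description of the list.

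**Figure D1:**
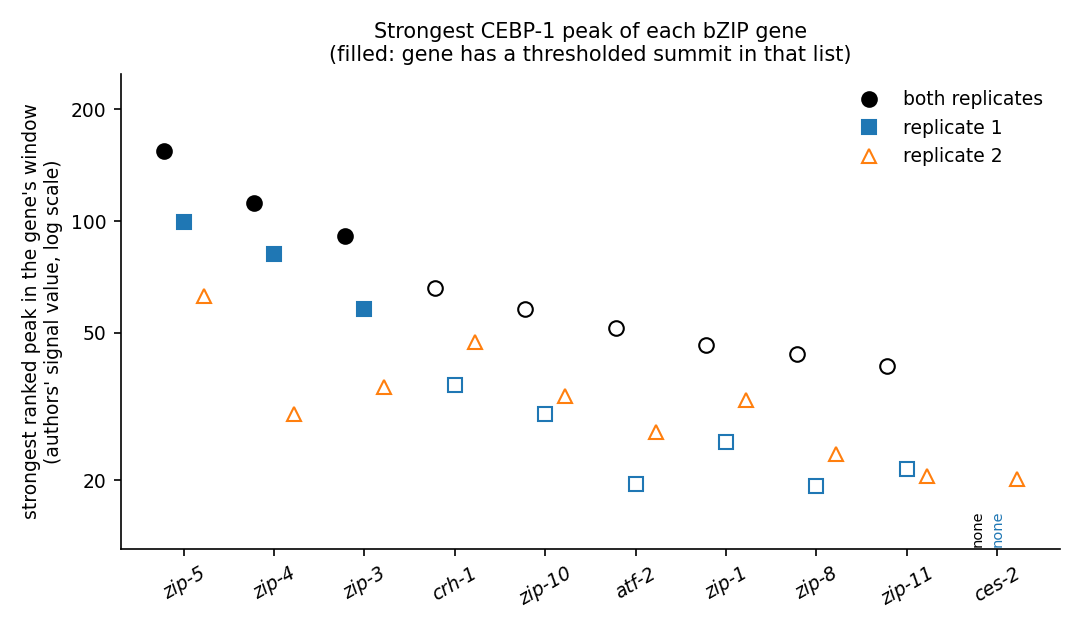
The strongest ranked peak in the window of each gene (vertical axis, the authors' signal value on a log scale) in the list of both replicates (black circles), replicate 1 (blue squares) and replicate 2 (orange triangles), with filled symbols where the gene has a thresholded summit in that list. Only zip-5, zip-4 and zip-3 have filled symbols, none of them in replicate 2, and ces-2 has no ranked peak in the list of both replicates or in replicate 1. The black symbol of zip-4 is a peak that missed the conservative list, and its conservative summit was weaker.

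The strongest peaks belonged to zip-5, which had 3 separate sites on the plus strand of chromosome V (C34D1.5, WBGene00007932, 13264545 to 13269827). Signal values are the authors' own, with scaling not stated, and a value from the list of both replicates is not the mean of the replicates. Site 3, with its summit at 13269351, had a signal of 154 in the list of both replicates, 92.1 in replicate 1 and 62.6 in replicate 2. It ranked 476 of the 1546 conservative peaks, above the list's median signal of 115.5, and lay in an intron, 155 bp downstream of the 5′ end of transcript C34D1.5c.1. Site 2, at 13268218, had a signal of 106, with 69.4 in replicate 1 and 46.9 in replicate 2, and lay in an intron 232 bp upstream of the 5′ end of C34D1.5a.1. The summits of sites 2 and 3 thus flanked the internal 5′ ends and lay 3673 and 4806 bp downstream of the outermost one. Site 1, at 13263268, lay outside the gene, 1277 bp upstream of the outermost 5′ end, and it had 125 in the list of both replicates, 99.2 in replicate 1 and 27.8 in replicate 2. In replicate 1 it was the strongest of the 3 sites and in replicate 2 the weakest, and it was called in the optimal list and in replicate 1 but not in the conservative list, where its global IDR was 0.0697.

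The sequences below are shown because zip-5 had the strongest peak of the 10 genes and its 3 sites held none of the bZIP words searched. Each is the 201 bases around the summit on the strand of the gene, read from the WBcel235 assembly (ce11), with the summit base, base 101, in capitals. Site 1 is chrV:13263168-13263368, site 2 is chrV:13268118-13268318 and site 3 is chrV:13269251-13269451, all on the plus strand.
zip-5 site 1: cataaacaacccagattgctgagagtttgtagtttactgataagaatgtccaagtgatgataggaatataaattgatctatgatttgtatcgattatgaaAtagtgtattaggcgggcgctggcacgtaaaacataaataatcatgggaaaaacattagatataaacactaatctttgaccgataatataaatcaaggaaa
zip-5 site 2: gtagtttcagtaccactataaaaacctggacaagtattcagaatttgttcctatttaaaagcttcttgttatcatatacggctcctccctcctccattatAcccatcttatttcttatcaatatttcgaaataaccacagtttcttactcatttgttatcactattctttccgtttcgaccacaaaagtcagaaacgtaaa
zip-5 site 3: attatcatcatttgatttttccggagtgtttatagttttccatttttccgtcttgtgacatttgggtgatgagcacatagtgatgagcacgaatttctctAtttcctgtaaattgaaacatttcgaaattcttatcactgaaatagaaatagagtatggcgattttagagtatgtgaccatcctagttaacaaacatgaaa

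The 10 words searched on both strands were TTGCGAAA, TTGCGCAA, TTGCGTAA, TTACGTAA, TTGCNNAA, TTGCATCA, TGACGTCA, TGACGTAA, TGACTCA and TGAGTCA. The last 2 are reverse complements of each other and count as 1, and TTGCNNAA includes the first 3. TTGCGAAA was the leading 8-base word of an earlier search of these same peaks, so its share in them is no independent support. It lay within 100 bp of 28.6% of conservative summits (442 of 1546), of 1.94% of flanks centred 500 bp away and of 2.40% of the 200-bp stretches upstream of protein-coding genes. None of the 4 conservative summits of the 10 genes had it, nor any other word in the list. The looser TTGCNNAA was the most common of the words, at 39.7% of conservative summits and 20.5% of flanks. The whole window of zip-5 held 0 copies of TTGCGAAA, against a copy in the windows of 28.8% of protein-coding genes. The GC content of the 201 bases was 31.8%, 33.8% and 32.8% at zip-5 sites 1, 2 and 3, below the mean over conservative summits of 42.4% ± 7.66 (SD over 1546 peaks).

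zip-3 (W07G1.3, WBGene00012330, minus strand of chromosome II, 13951904 to 13957457) had 1 thresholded site. Its summit at 13956839 lay in an intron, 618 bp downstream of the outermost 5′ end and 847 bp upstream of the 5′ end of the shorter transcript W07G1.3.2. The signal was 91.2 in the list of both replicates, 57.8 in replicate 1 and 35.8 in replicate 2. It ranked 1130 of 1546 in the conservative list, in the weaker part of that list, with a global IDR of 0.00537. In replicate 2 the overlapping peak ranked 2554 of 39805 with a global IDR of 0.221, so it was present there but did not pass. The site is shown on the strand of the gene, chrII:13956739-13956939 on the minus strand, with the summit base in capitals, as the 1 conservative site of a gene that acts against ATFS-1. It held none of the 10 words, and its GC content was 46.8%.
zip-3 site 1: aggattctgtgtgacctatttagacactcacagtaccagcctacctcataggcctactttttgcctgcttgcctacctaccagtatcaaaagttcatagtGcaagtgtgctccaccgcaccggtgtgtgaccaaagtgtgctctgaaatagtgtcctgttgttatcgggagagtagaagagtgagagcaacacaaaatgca

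The 1 copy of TTGCGAAA in the window of zip-3 lay elsewhere, 1641 bp upstream of the outermost 5′ end, and no thresholded summit lay within 100 bp of it. At atfs-1, whose product ZIP-3 opposes, the conservative list had a peak with a signal of 112, 51 bp upstream of a 5′ end, with 64.3 in replicate 1 and 40.2 in replicate 2. wwp-1, which encodes a ubiquitin ligase that acts on ZIP-3, had 2 conservative summits. The stronger had a signal of 109 and lay 1657 bp upstream of a 5′ end. The thresholded list of replicate 2 held no summit at atfs-1 or wwp-1.

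zip-4 (Y44E3B.1, WBGene00021552, minus strand of chromosome I, 3264111 to 3266762) had 3 thresholded summits, and no list held all of them. Its conservative summit, at 3266796, lay 34 bp upstream of the outermost 5′ end. That interval is shared: it lies 298 bp upstream of the 5′ end of nol-58, which runs the other way and encodes a core protein of box C/D small nucleolar ribonucleoproteins, so the peak cannot be given to either gene alone. Its signal was 85.2 in the list of both replicates and 43.8 in replicate 1, and no ranked peak of replicate 2 overlapped it. It passed in the conservative list with a global IDR of 0.00397 and missed the optimal list at 0.0231. The other 2 summits did the reverse, with global IDRs of 0.00622 and 0.00625 in the optimal ranking and 0.0220 and 0.0219 in the conservative one. The stronger of them, at 3266098, lay in an intron 241 bp upstream of the 5′ end of Y44E3B.1a.2, with a signal of 112 in the list of both replicates, 81.7 in replicate 1 and 30.2 in replicate 2. The weaker, at 3266301 and also in an intron, had a signal of 29.7, below the median of 29.98 over the ranked list of both replicates. Its interval shared 101 bp with the stronger one, and their summits lay 203 bp apart. The strongest overlapping peak of each replicate was the same for these 2 summits. Both also lay in the window of nol-58, the stronger 996 bp and the weaker 793 bp upstream of its 5′ end. Neither can be given to zip-4 alone.

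The stronger intronic peak of zip-4, at 3266098, was the only thresholded site among the 10 genes with TTGCGAAA. It held 2 copies, with centres 33.5 and 41.5 bp from the summit on opposite sides. TTGCGAAA thus lay within 100 bp of 0 of 4 conservative summits, 1 of 6 optimal summits and 1 of 5 summits of replicate 1. The weaker intronic summit of zip-4 had TTGCNNAA without TTGCGAAA, 92.5 bp away. Across the windows of the 10 genes there were 10 copies of TTGCGAAA in 6 genes, beside a copy at 28.8% of all protein-coding genes. The windows of the 10 were longer, with a median of 5.26 kb against 4.03 kb, so the 2 shares are not alike. None of the 10 copies lay within 100 bp of a conservative summit, and 2 lay within 100 bp of any thresholded summit. The windows of zip-1, ces-2, atf-2 and crh-1, with 2, 1, 1 and 2 of the copies, held no thresholded summit. Only the copies at zip-3 (1) and zip-4 (3) lay in a window with one, so these counts restate the calls in part. In the genome, 489 of 7892 copies (6.20%) lay within 100 bp of a conservative summit.

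**Figure D2:**
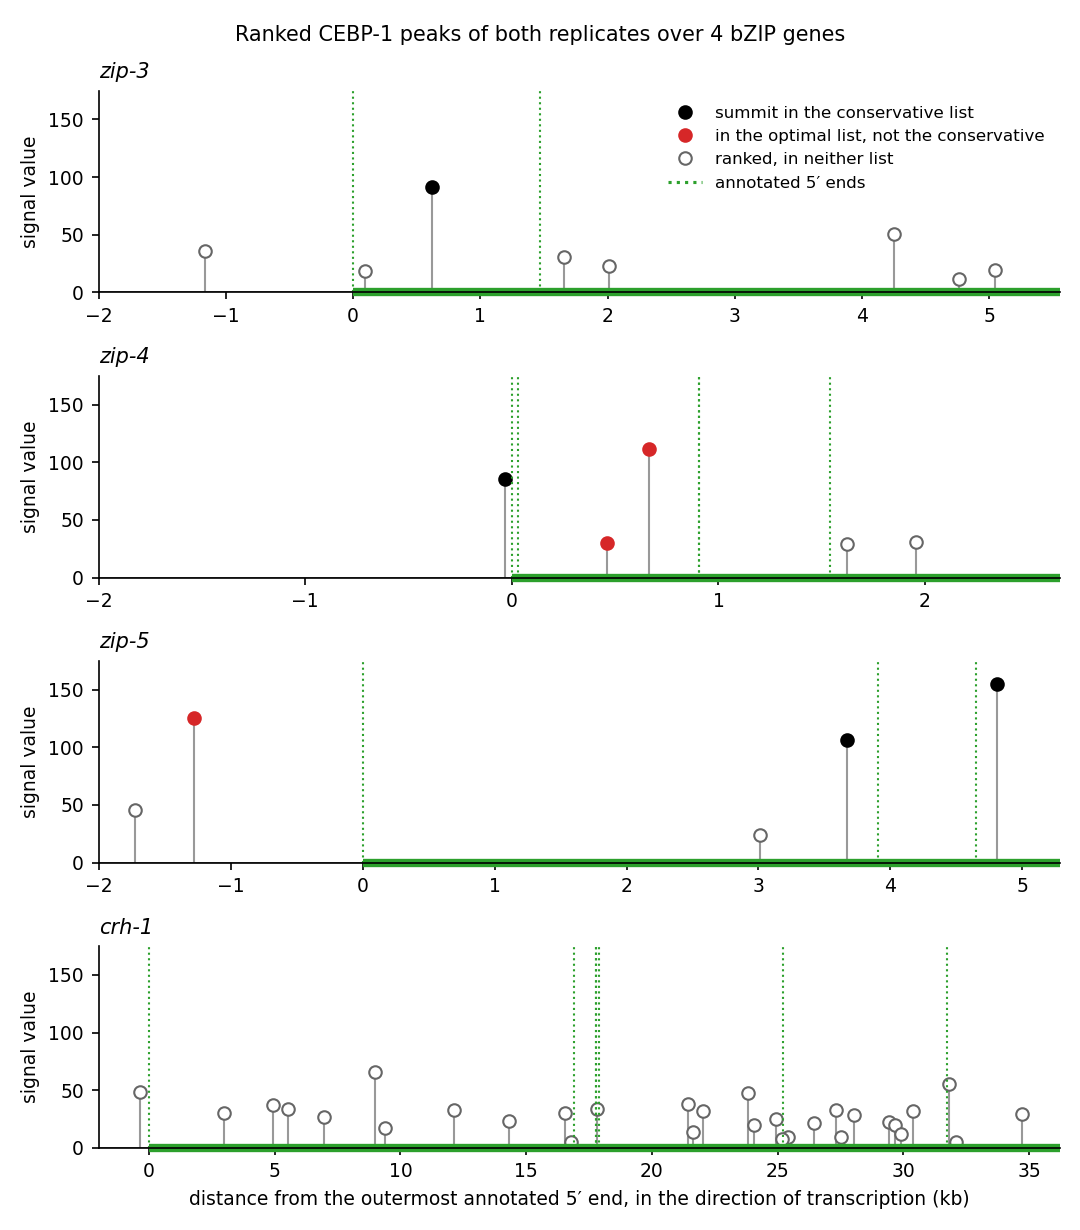
Ranked peaks of both replicates (signal value, vertical axis) along zip-3, zip-4, zip-5 and crh-1, by distance in kb from the outermost annotated 5′ end, with the gene drawn as a green bar and each annotated 5′ end as a dotted line. Filled summits lie upstream of and inside zip-4 and zip-5 and inside zip-3, while the 31 ranked peaks of crh-1 are spread along the gene and all are open.

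At the thresholded sites, the signal value of replicate 1 was the higher wherever both replicates had a peak. Since the scaling of each list is not stated, the ratios are read only beside those of all conservative peaks. The ratio of replicate 1 to replicate 2 was 1.47 at zip-5 site 3, 1.48 at zip-5 site 2, 1.61 at zip-3, 2.70 at the stronger intronic peak of zip-4 and 3.57 at zip-5 site 1. Over the 1525 conservative peaks with a ranked peak in both replicates, the median ratio was 1.27, with an interquartile range of 1.02 to 1.58. The first 2 ratios lay inside that range and the other 3 above it. The 2 highest belonged to sites that passed in replicate 1 and in the optimal list, but not in the conservative list or in replicate 2. Conservative peaks passed a limit on how well peaks repeat, and these 2 sites did not. Their higher ratios go with how the sites were selected and are no separate result. The peak at zip-5 site 3 missed the list of replicate 2 by little: its global IDR there was 0.0107, and the highest in that list was 0.00999. By the 2 values of both replicates at zip-5 site 3, the nearest genes among 862 conservative promoter peaks were rad-50 (93.3 and 61.2), ipla-2 (90.5 and 66.3) and dnj-20 (89.6 and 59.3), on the log2 scale.

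None of the 7 remaining genes had a summit in any of the 4 thresholded lists, and their ranked peaks, which include many that do not repeat, are given as the level below the threshold. Strongest first, the signal in the list of both replicates was 65.8 at crh-1, 58.0 at zip-10, 51.4 at atf-2, 46.4 at zip-1, 43.8 at zip-8 and 40.7 at zip-11, with no ranked peak at ces-2. Over all 10 genes the median was 54.7, and over all protein-coding genes it was 37.1 (interquartile range 21.9 to 49.99), with the 4451 genes without a ranked peak counted as 0. The share of protein-coding genes with a peak at least as strong was 2.93% for zip-5, 4.86% for zip-4, 6.73% for zip-3, 12.4% for crh-1 and 16.8% for zip-10. The value for zip-4 is that of its peak of 112, which missed the conservative list. Its conservative summit, 85.2, was weaker than that of zip-3, 91.2. The share was 23.4% for atf-2, 30.9% for zip-1, 35.4% for zip-8 and 42.2% for zip-11. Long windows hold more peaks, so these shares favour long genes such as crh-1.

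zip-5 came first and ces-2 last in the list of both replicates and in each replicate, and zip-5, zip-4 and zip-3 came in the first 3 places in the list of both and in replicate 1. In replicate 2 the order was zip-5, crh-1, zip-3, zip-10, zip-1 and then zip-4. Compared with the list of both replicates, 6 of 10 genes kept their place in replicate 1 and 5 of 10 in replicate 2. From zip-10 to zip-11 the signals in the list of both replicates spanned 40.7 to 58.0, and the replicates placed these genes in different orders, so their order is not resolved by these data.

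Window length went with the share of genes called. Of all protein-coding genes, 5.41% were called in the conservative list with windows under 4 kb, 8.10% from 4 to 6 kb, 11.4% from 6 to 10 kb, 12.8% from 10 to 20 kb and 13.3% from 20 kb. Both genes in the class from 6 to 10 kb were called, zip-3 (7.55 kb) and zip-5 (7.28 kb). In the class from 4 to 6 kb, zip-4 was called and zip-8 and ces-2 were not. The genes zip-10, zip-11 and atf-2, with windows under 4 kb, were not called, nor were zip-1 (13.6 kb) and crh-1 (38.2 kb). Of the 28 protein-coding genes with a window at least as long as that of crh-1, 2 were called (7.14%).

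**Figure D3:**
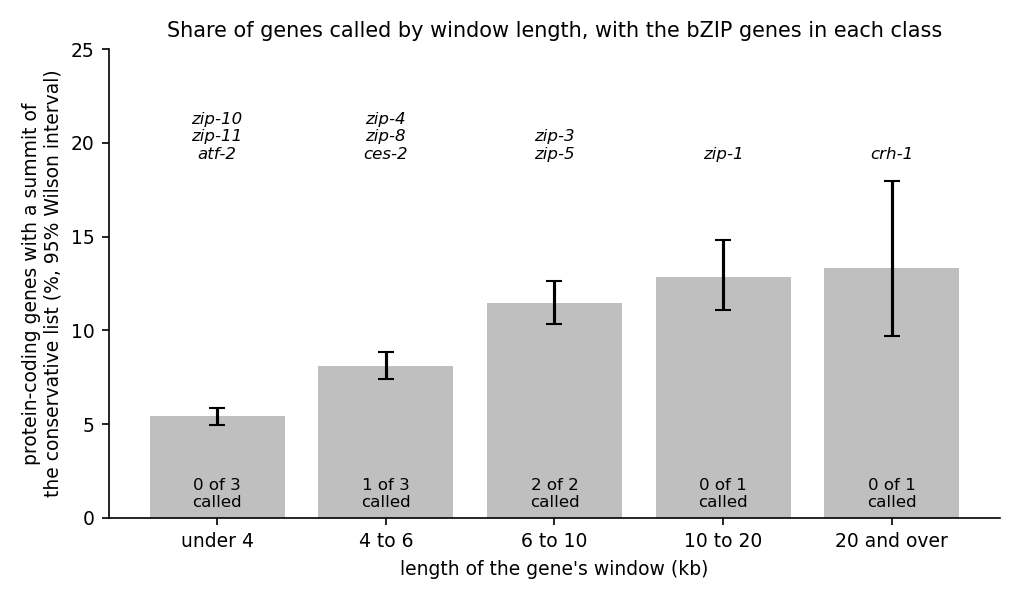
Share of protein-coding genes with a conservative summit in their window (vertical axis, percent, bars with 95% Wilson intervals) by length of the window in kb, with the bZIP genes of each class written above. The share rises from 5.41% to 13.3%, and the 3 called genes fall in the classes from 4 to 6 kb and from 6 to 10 kb.

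crh-1 (WBGene00000793, plus strand of chromosome III, 11657767 to 11693981) had 31 ranked peaks in the list of both replicates and no thresholded one. Its strongest, with a summit at 11666745 in an intron, had a signal of 65.8, a global IDR of 0.617 and TTGCNNAA 78.5 bp from the summit. In replicate 2 this peak had a signal of 47.1, ranked 1061 of 39805 and had a global IDR of 0.0105, just past the threshold, and no ranked peak of replicate 1 overlapped it. This is the opposite of the thresholded sites, where replicate 1 was the higher. Peak 2, at 11689584, lay 72 bp downstream of the 5′ end of an internal transcript, in a non-coding part of an exon, with a signal of 55.5, and replicates 1 and 2 gave 27.7 and 23.9. Peak 3, at 11657413, lay 354 bp upstream of the outermost 5′ end, with a signal of 48.2 and 36.2 in replicate 1, and no ranked peak of replicate 2 overlapped it.

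Peaks 2 and 3 both held the CRE, TGACGTCA, the word that CREB proteins such as the product of crh-1 bind. The window of crh-1 held 10 of the 12 copies found in the windows of the 10 genes, or 0.262 per kb, against 0.0601 per kb in the genome. This count was made after the sequences were seen. Only 10 protein-coding genes (0.0501%) had as many copies, and among the 28 genes with windows as long the copies ran from 0 to 11 with a median of 3. Of the 31 ranked peaks of crh-1, 4 had a copy within 100 bp of the summit. The CRE was not common at CEBP-1 summits: 1.55% of conservative summits, 1.36% of flanks and 1.44% of ranked peaks outside the conservative list held it. None of the 12 copies lay within 100 bp of a thresholded summit. The windows of crh-1 and zip-1, with 10 and 1 of the copies, held no such summit at all. Only the 1 copy at zip-3 lay in a window with a thresholded summit, so this count says little about the CRE. The stretches are shown because they carry the CRE, in capitals: 30 bases of peak 2, chrIII:11689579-11689608, and 201 bases of peak 3, chrIII:11657313-11657513, both on the plus strand.
crh-1 peak 2: tcgacaggaatTGACGTCActttttttctc
crh-1 peak 3: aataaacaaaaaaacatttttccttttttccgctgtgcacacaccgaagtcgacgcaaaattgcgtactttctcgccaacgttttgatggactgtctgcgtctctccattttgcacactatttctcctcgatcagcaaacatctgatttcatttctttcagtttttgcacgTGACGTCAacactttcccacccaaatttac

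The CRE centres lay 9.5 bp from the summit of peak 2 and 74.5 bp from that of peak 3. Among other genes of the CREB pathway, cbp-1, which encodes the CBP/p300 coactivator, had a conservative peak with a signal of 205. Its summit lay 874 bp upstream of a 5′ end. cmk-1, which encodes a calmodulin-dependent kinase that acts on CRH-1, had 1 with 174. No annotated start of cmk-1 itself was closer to that summit than 6891 bp, with the summit on the downstream side. How far this summit was from promoters of other genes was not tested. aak-2, which encodes a catalytic subunit of AMP-activated kinase, had 1 with 184, and its summit lay 917 bp downstream of a 5′ end. kin-1, which encodes the catalytic subunit of protein kinase A, was called in the optimal list only, and crtc-1, the CREB coactivator that AMP-activated kinase restrains, kin-2 and unc-43 in none. In replicate 1 and replicate 2, the values were 120 and 87.7 at cbp-1, 101 and 74.5 at cmk-1, and 103 and 76.9 at aak-2. Each of these 3 was called in both replicates, unlike any of the 10 bZIP genes. Their windows were long, 10.3 kb at cbp-1, 11.8 kb at cmk-1 and 9.31 kb at aak-2. Of all protein-coding genes, 11.4% with windows from 6 to 10 kb and 12.8% from 10 to 20 kb were called in the conservative list.

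At zip-8 (WBGene00017755, plus strand of chromosome III, 6478955 to 6481243) the list of both replicates had a single ranked peak, 180 bp upstream of the 5′ end. Its signal was 43.8, with 19.3 in replicate 1 and 23.5 in replicate 2, and its global IDR was 0.401. Yet these 201 bases held a pair of bZIP words, TTGCATCA at 30.5 bp and TTACGTAA at 71.5 bp from the summit. TTGCATCA, in which a C/EBP half-site meets an ATF half-site, occurred at 1.81% of conservative summits and 0.517% of flanks, and TTACGTAA, the PAR-type word, at 0.194% and 0.259%. The GC content was 56.7%. The stretch, chrIII:6478675-6478875 on the plus strand, is shown with both words in capitals, as sequence with bZIP words and no thresholded peak.
zip-8 first peak: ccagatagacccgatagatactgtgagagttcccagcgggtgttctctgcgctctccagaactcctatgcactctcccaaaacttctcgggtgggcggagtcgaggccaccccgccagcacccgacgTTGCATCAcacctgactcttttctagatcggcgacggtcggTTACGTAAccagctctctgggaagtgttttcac

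A similar case was atf-2 (WBGene00000220, plus strand of chromosome II, 8751986 to 8753940), a gene closely related to ces-2. Its strongest ranked peak, 1623 bp upstream of the 5′ end, held TTGCGAAA with its centre 35.5 bp from the summit. The signal was 51.4 in the list of both replicates, no ranked peak of replicate 2 overlapped it, and the global IDR was 0.402. The overlapping peak of replicate 1 had 19.5, but its own summit, at 8750210, lay just outside the interval, which began at 8750211. Of ranked peaks outside the conservative list, 2.06% held this word. The 30 bases around it, chrII:8750313-8750342 on the plus strand, are shown with the word in capitals as its reverse complement.
atf-2 first peak: caacacctcacTTTCGCAAtcaactaccaa

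The 4 other genes had weak ranked peaks without any of the words searched at their strongest summit. At zip-10 the strongest lay in a coding exon, 414 bp downstream of the 5′ end, with a signal of 58.0, and replicates 1 and 2 gave 20.6 and 33.7. isy-1, which restrains zip-10, had no ranked peak in the list of both replicates. At zip-1 the strongest, 46.4, lay in a coding exon, with 15.3 in replicate 1 and 21.8 in replicate 2. The pathogen response genes pals-5, pals-22, pals-25 and drh-1 had no thresholded summit, and their strongest ranked peaks had signals of 31.8, 34.6, 42.0 and 28.1. At zip-11 the strongest lay 166 bp upstream of the 5′ end, with a signal of 40.7, and replicates 1 and 2 gave 21.4 and 20.5. ces-2 had no ranked peak in the list of both replicates matched to the conservative list or in replicate 1, 41.6 in the ranking matched to the optimal list and 20.1 in replicate 2. Of the cell death genes, ces-1, which CES-2 represses, egl-1 and hlh-2 were not called in any thresholded list.

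Among the other bZIP genes, 18 of 19 listed were matched in the annotation, and 11 of the 18 had a conservative summit, 12 an optimal one, 10 one in replicate 1 and 7 in replicate 2. The shares of all protein-coding genes called in these 4 lists were 7.62%, 9.49%, 8.02% and 4.48%. The 7 called in replicate 2 compare with 0 of the 10 genes described here. The strongest were xbp-1 (1301), cebp-1 (1267), zip-2 (592), zip-9 (395), jun-1 (393) and let-607 (282). The median strongest signal was 108 over these 18 genes and 54.7 over the 10. Ranked together, zip-5 took place 8, zip-4 place 10 and zip-3 place 14 of 28, and the 7 uncalled genes stood between places 18 and 28. The place of zip-4 rests on its peak of 112, which missed the conservative list. Its conservative summit had 85.2, below the 91.2 of zip-3 and the 90.8 of atf-4, which was not called in the conservative list. The 10 and the 18 were separated with results of these data known, and the part of that choice in the gap between them was not tested. Of the 17 partner and pathway genes, 4 were called in the conservative list, 5 in the optimal, 4 in replicate 1 and 3 in replicate 2, beside the same 4 shares, and their median strongest signal was 39.2.

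**Figure D4:**
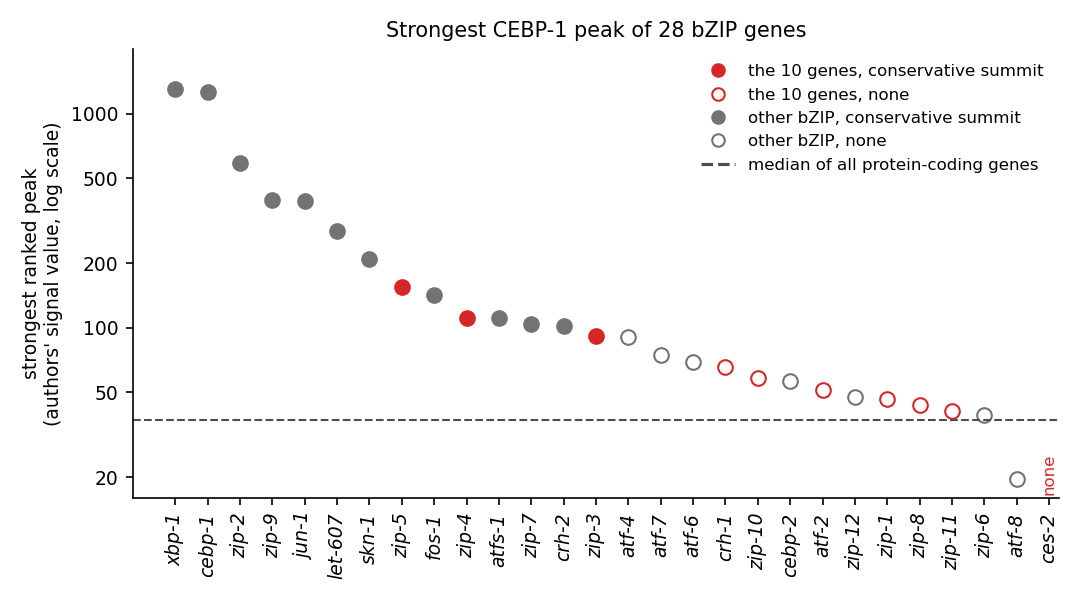
Strongest ranked peak (vertical axis, the authors' signal value on a log scale, list of both replicates) of 28 bZIP genes in order, with the 10 genes in red and the other 18 in grey, filled where the gene has a conservative summit. The dashed line is the median of all protein-coding genes, 37.1, and zip-5, zip-4 and zip-3 stand at places 8, 10 and 14. At zip-4 the peak drawn is not its conservative summit, which was weaker.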

How the data were processed

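The deposited files are ChIP-seq peak lists on assembly ce11 from 2 replicates: 4 ranked and 4 thresholded lists. Per the deposited notes, the authors made the calls with a control alignment and then ranked peaks by IDR; which peak caller they used is not given in the sources used here. The deposited score column holds whole numbers of at most 1000, and no thresholded peak scored below 830. The authors' signal value has no stated scaling, so it ranked peaks within a list, and ratios between the replicates' lists are given only beside those over all conservative peaks. The genes nearest to zip-5 site 3 were found from both replicates' values, each compared within its own list. The authors' −log10 of the global IDR was read from each ranked list and converted back to the IDR. Depth is unknown, and no interval for depth is given. Genes came from Ensembl release 115 on WBcel235, the same build as ce11, and every peak fell within its chromosomes. A replicate's value at a site is the strongest overlapping peak in its own ranked list. Words were searched within 100 bp of a summit on both strands, and all coordinates are 1-based. No tests were run. Counts are set beside the share of 19973 protein-coding genes called in the same way.

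All 10 genes, the genes within 2 kb of their thresholded summits, the 6 strongest other bZIP genes, the listed partner genes and the 3 genes with replicate values nearest to the strongest site were named by rule. The members and lists were chosen with earlier results of these data known, and the CRE count over whole windows and the word TGATAA were added after the sequences were seen. The scripts ran in Python 3.11.15 with pandas 2.3.3, numpy 2.4.6, matplotlib 3.10.9 and, for intervals, scipy 1.17.1. The assignment of summits and words was tested on simulated data. Alternatives covered the list, the IDR limit, the window, the assignment rule and each replicate alone.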

Additional observations from a re-analysis of the deposited data

How the results depend on the processing

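The count of 3 genes with a thresholded summit was the same under the optimal list, windows from 1 kb and 3 kb upstream, the promoter alone, peak overlap of 1 bp and the nearest 5′ end. With a global IDR of at most 0.001, 1 gene (zip-5) was called, against 4.64% of all genes. Leaving out a replicate gave 0 to 3 genes, with 0 from replicate 2 alone, and 4.48% to 8.02% of all genes. The share of all genes, 7.62%, was 9.49% with the optimal list, 6.17% from 1 kb and 8.95% from 3 kb upstream, 5.06% for the promoter, 8.14% by overlap and 5.22% by the nearest 5′ end. The count of sites with TTGCGAAA, 0, was the same for 50 and 150 bp and was 1 in the optimal list, and it was 1 without replicate 2, while no value exists without replicate 1. By global IDR, 7 of 10 genes kept their place in the order of signal. The cause of these differences was not tested.

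With 2 replicates, 1 group and no control sample among the data used here, a site called in replicate 1 and missed in replicate 2 cannot be weighed further. The 2 series lists share all their libraries, so their shared calls are not separate evidence. Weak ranked peaks at the 7 uncalled genes do not show binding, and their lack of a threshold call does not show its absence.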

Other observations

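The word TGATAA, noticed in the printed sequences, lay within 100 bp of all 3 zip-5 summits, with 1 copy at site 1, 3 at site 2 and 2 at site 3. It was not frequent at CEBP-1 peaks: 17.2% of conservative summits, 18.2% of flanks and 22.8% of promoter stretches of 200 bp held it. The zip-3 site held 0 copies, and of the 3 zip-4 summits 1 had a copy. Within 50 bp of the summit, 2 of the 3 zip-5 sites held it.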
